A study of Mus musculus with 2 samples.

Results

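The genes described are 10 genes of the smooth muscle contractile apparatus, Acta2, Actg2, Myh11, Cnn1, Smtn, Tagln, Mylk, Lmod1, Des and Cald1. They were chosen by name as all single-symbol probe sets of these genes on an Affymetrix mouse array. All 10 genes had such a probe set, 17 probe sets in all, out of 12393 genes and 22690 probe sets on the array. Expression was compared between teratomas, tumours of mixed differentiated tissue, of 2 sources. The B6 ES pool held RNA of tumours formed by embryonic stem cells of strain C57BL/6 (B6). The EiPS pool held RNA of tumours formed by EiPS cells, induced pluripotent stem cells of the same strain, which the source label calls 1E12 iPS and whose tumours the submitters describe as regressing. In both groups the hosts were male B6 mice that received the cells subcutaneously, the tumours grew for 6 weeks, and each array held the pooled RNA of 2 tumours. With 1 array per group no difference could be tested, and all values compare these 2 pools and 1 EiPS line, not ES and iPS cells in general. A pooled array also holds whatever host tissue was taken with the tumour.

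Smooth muscle cells line vessels, airways and hollow organs. Their contraction starts when calcium and calmodulin activate myosin light chain kinase, which phosphorylates the regulatory light chain so that smooth muscle myosin can pull on actin filaments. Calponin, caldesmon, transgelin and smoothelin bind those actin filaments, leiomodin helps to build them, and desmin filaments link the contractile units. Many of these genes are switched on together by serum response factor (SRF) and its partner myocardin at a DNA element called the CArG box. Some of them are also used elsewhere: desmin is made in all muscle types, and Acta2, Tagln, Mylk and Cald1 are also expressed in activated fibroblasts or other non-muscle cells.

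Start-site windows were examined because the members share SRF control as background knowledge. The windows run from 250 bases before to 50 bases after the start, taken from RefSeq (GRCm38.p6) and read in the direction of transcription. Entries were matched for 7 of the 10 members, 8 windows in all, with Actg2, Myh11 and Tagln unmatched. The exact CArG box was found in 0 of the 8 windows and in 1.63% of 32851 windows of all genes. A CArG-like element, with 1 G or C among the 6 central bases, was found in 1 member window, that of Acta2, and in 8.5% of all windows. The MCAT element (CATTCC, either strand), which TEAD factors bind, was found in windows of 5 of the 7 members and in 14.7% of all windows; neither element overlapped another in these windows. These matches are descriptions of letters in short windows and are not shown to be used in the tumours. The 3 windows printed are those of Acta2 (chr19:34255324-34255623, minus strand), which holds CArG-like elements and differed little between the pools, of Cnn1 (chr9:22099003-22099302, plus strand), which differed most and holds none of these elements, and of Smtn (chr11:3539243-3539542, minus strand), which holds an MCAT element. These 3 were chosen with the values known, and a link between elements and differences was not tested. MCAT elements also occur in windows of Mylk and Lmod1, lower in the EiPS pool, and in a window of Cald1, higher there. The window of Des, lower there, holds none of these elements. Capitals mark CArG-like and MCAT matches.
Acta2: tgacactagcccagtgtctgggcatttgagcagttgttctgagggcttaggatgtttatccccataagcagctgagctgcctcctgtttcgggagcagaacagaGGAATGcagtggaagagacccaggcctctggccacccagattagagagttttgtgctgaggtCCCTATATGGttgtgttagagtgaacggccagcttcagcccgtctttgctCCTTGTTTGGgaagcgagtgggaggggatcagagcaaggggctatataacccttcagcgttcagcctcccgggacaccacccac
Cnn1: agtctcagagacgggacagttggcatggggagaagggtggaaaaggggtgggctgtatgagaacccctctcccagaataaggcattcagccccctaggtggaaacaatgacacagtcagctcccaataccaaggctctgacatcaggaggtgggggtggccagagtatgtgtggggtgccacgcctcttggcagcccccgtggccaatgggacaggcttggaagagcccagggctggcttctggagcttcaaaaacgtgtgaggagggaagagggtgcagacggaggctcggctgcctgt
Smtn: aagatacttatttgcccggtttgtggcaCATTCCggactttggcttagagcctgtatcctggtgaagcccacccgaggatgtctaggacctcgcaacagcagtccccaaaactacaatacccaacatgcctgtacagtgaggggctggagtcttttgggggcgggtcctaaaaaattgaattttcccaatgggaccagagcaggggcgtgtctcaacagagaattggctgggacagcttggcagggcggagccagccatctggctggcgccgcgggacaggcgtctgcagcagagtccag
The CArG-like elements of Acta2 begin 84 and 34 bases before the start and its MCAT element begins 146 bases before it, while the MCAT element of Smtn begins 222 bases before the start.

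Smooth muscle contractile genes had lower signals in the EiPS pool as a group. Of the 10 genes, 9 were lower there and 5 passed 2-fold (Cnn1, Myh11, Des, Smtn and Actg2), while 3.05% of 10962 compared genes were at least 2-fold lower. None of the 10 was at least 2-fold higher, against 5.79% of compared genes, and Cald1 was the only one higher at all. The median log2 difference (EiPS less B6 ES) was -1.14, against 0.07 over all compared genes, of which 43.8% were lower by any amount. Without Des, which all muscle types express, the median was -0.97 and 4 of 9 genes were at least 2-fold lower (a choice made after the values were seen). That -0.97 is the value of Lmod1, a bound set by the signal floor, which also enters the median of -1.14. With other floors the median of the 10 genes ran from -1.32 to -0.98. Of the 14 probe sets above the signal floor on both arrays, 11 were lower (7 at least 2-fold), while the 3 higher ones were all of Cald1. In pooled tumour RNA, fewer smooth muscle cells and less RNA of these genes per cell cannot be told apart.

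**Figure D1:**
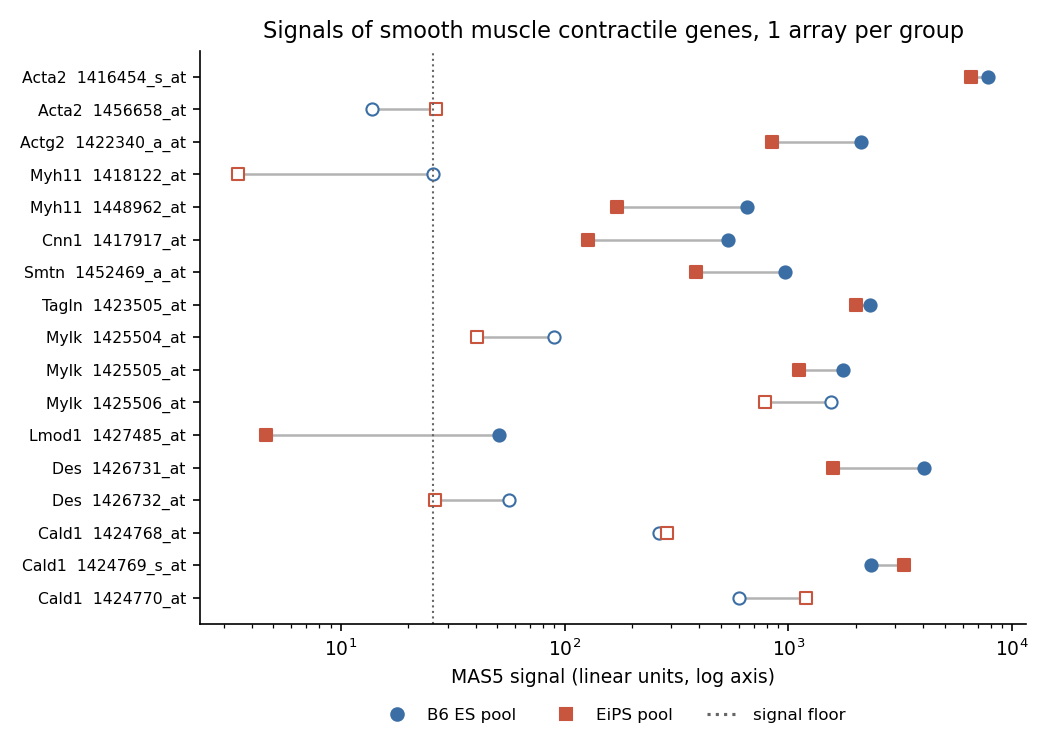
MAS5 signals (linear units on a log axis) of the 17 probe sets of the 10 genes, 1 row per probe set, with circles for the B6 ES pool and squares for the EiPS pool. Filled symbols are the brightest probe set of each gene, and the dotted line is the signal floor of 25.8. Among filled symbols, the square lies to the left of the circle in 9 of 10 rows, and for Cald1 to the right.

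Signals are array intensities on a linear scale that the authors had set to the same level on both arrays. A floor of 25.8 was taken from 71 probe sets of olfactory, vomeronasal and taste receptors, held to be silent in tumours of this kind. Where only 1 array lay below the floor, the floor value took its place and the fold is written "at least". A gene's value is that of its brightest probe set, and levels of different genes cannot be compared, since each probe set binds with its own strength. Where a gene had several probe sets, their log2 differences had an SD of 0.40 (3805 genes). The SD was 0.54 among probe sets with signals under 100, 0.34 from 100 to 1000 and 0.19 above 1000. It gauges measurement noise only and leaves out variation between tumours, which 1 array per group cannot give.

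Myosin and its kinase were both lower in the EiPS pool. Myh11 encodes the smooth muscle myosin heavy chain, the motor of the thick filament. Its brightest probe set read 650 for B6 ES tumours and 171 for EiPS tumours, 3.79-fold lower in the latter (log2 difference -1.92). The second Myh11 probe set had signals of 25.9 and 3.47, at and under the floor, so it carries no fold. Myh11 ranked 45 from the lowest among the 10962 compared genes. Mylk encodes myosin light chain kinase, and its 3 probe sets were all lower in the EiPS pool. The brightest had signals of 1750 and 1120 (1.56-fold lower), the next 1544 and 788 (1.96-fold) and the dimmest 89.4 and 40.5 (2.21-fold). The size of the Mylk difference thus depends on the probe set, from -0.64 to -1.14 on the log2 scale, while its direction does not.

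The actins of smooth muscle differed from each other. Actg2, the gamma actin typical of gut and other visceral smooth muscle, had signals of 2105 (B6 ES) and 847 (EiPS), 2.48-fold lower (log2 difference -1.31). Acta2, the alpha actin of vascular smooth muscle and of activated fibroblasts, had signals of 7817 and 6552, lower by only 1.19-fold (log2 difference -0.25). That is slightly more than the SD between probe sets above 1000 (0.19) and less than the SD over all (0.40). Its second probe set read 13.7 and 26.7, under and just above the floor, and carries no fold. The value for Acta2 thus rests on 1 probe set, of a type shared by several transcripts. Lmod1 encodes leiomodin, which nucleates actin filaments in smooth muscle. Its signal was 50.6 for B6 ES tumours and 4.65, under the floor, for EiPS tumours, at least 1.96-fold lower. The bound follows the floor closely, from -0.04 on the log2 scale (98th percentile of the silent receptors) to -1.38 (75th percentile).

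Among the proteins that bind actin filaments, Cnn1 and Smtn were lower in the EiPS pool, Tagln differed little and Cald1 was higher. Cnn1 encodes calponin, which restrains actin-activated myosin, and differed most of the 10 genes. Its signals were 539 and 127, 4.25-fold lower (log2 difference -2.09), and it ranked 32 from the lowest of the compared genes, of which 0.347% were at least 4-fold lower. Smtn encodes smoothelin, a protein of fully contractile smooth muscle cells, with signals of 966 and 385, 2.51-fold lower (log2 difference -1.33). Tagln encodes transgelin (SM22), which cross-links actin. Its signals of 2314 and 1997 were 1.16-fold apart (log2 difference -0.21), again slightly more than the SD between probe sets above 1000. Cald1 encodes caldesmon, of which smooth muscle and non-muscle cells make different splice forms. Its brightest probe set had signals of 2349 and 3268, 1.39-fold higher in the EiPS pool, and the others read 601 and 1193 (1.99-fold higher) and 263 and 287 (1.09-fold). All 3 Cald1 probe sets were higher in the EiPS pool, by 0.12 to 0.99 on the log2 scale, and which splice forms each binds was not used here.

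Desmin was lower by both of its probe sets. The brighter had signals of 4038 and 1587, 2.54-fold lower in the EiPS pool (log2 difference -1.35). The dimmer had signals of 56.6 and 26.4, the latter just above the floor, 2.14-fold lower. As desmin is made in skeletal, cardiac and smooth muscle, its signal cannot be assigned to smooth muscle in these pools.

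By median, members held to be restricted to smooth muscle differed more than those used by other cells too. The 5 restricted genes (Cnn1, Myh11, Smtn, Actg2 and Lmod1) were all lower in the EiPS pool, with log2 differences from -2.09 to -0.97 and a median of -1.33, the upper end being the bound for Lmod1. The 5 genes with a wider use (Des, Mylk, Acta2, Tagln and Cald1) ran from -1.35 to 0.48, with a median of -0.25. The 2 ranges overlap through Des, and the dimmer Mylk probe sets (-0.97 and -1.14) also fall in the restricted range. This split rests on general knowledge of where the genes are expressed and was made with earlier results of these data known.

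**Figure D2:**
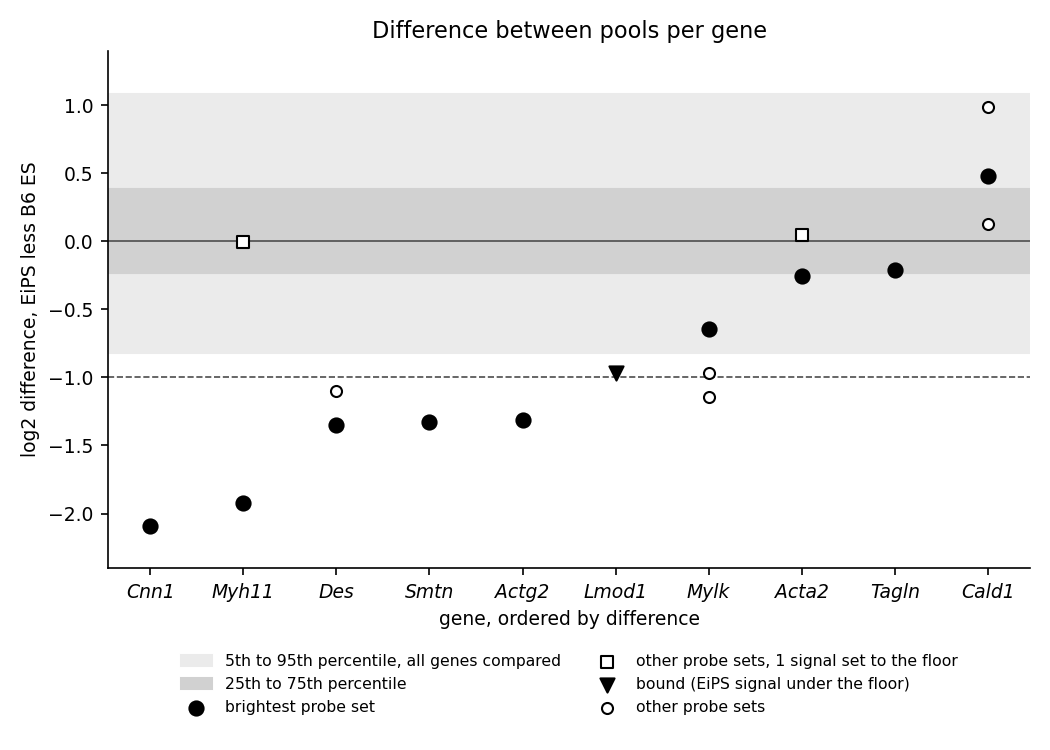
Log2 difference (EiPS less B6 ES) of each gene, ordered from Cnn1 (-2.09) to Cald1 (0.48). Filled symbols are the brightest probe set, open symbols the other probe sets (squares where 1 signal was set to the floor), the triangle a bound for Lmod1, and the dashed line 2-fold lower. Grey bands show where the middle of all compared genes lies, from -0.24 to 0.39 for the darker band (25th to 75th percentile) and from -0.82 to 1.08 for the lighter one (5th to 95th).

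Most relatives of the same protein families that non-muscle cells use were not lower with them. Cnn2 and Cnn3, the calponins of non-muscle cells, were 1.55-fold and 1.27-fold higher in the EiPS pool (log2 differences 0.63 and 0.34), although the probe sets of Cnn3 went both ways. Cnn1 thus stood 2.72 below Cnn2 and 2.43 below Cnn3 on the log2 scale, gaps that a single scaling factor per array leaves as they are. Among myosin heavy chains, the non-muscle gene Myh9 was 1.38-fold higher, which puts Myh11 2.38 below it. Myh14, another non-muscle myosin, differed by 0.09. The cytoplasmic actins Actb and Actg1 differed by 0.13 and 0.12, and Actg2 stood 1.44 and 1.43 below them. Vim (vimentin), the intermediate filament protein of mesenchymal cells, was 1.37-fold higher, 1.80 above Des on the log2 scale. Tagln2 was 1.26-fold higher, 0.55 above Tagln. The signs of Myh14, Actb and Actg1 turn with the scaling of the arrays, those of Actb and Actg1 to -0.10 and -0.13 after quantile normalization, whereas Cnn2, Cnn3, Myh9, Vim and Tagln2 were higher under each scaling tried.

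Relatives found in striated muscle, or in muscle more broadly, were lower, and 3 passed 2-fold. Lmod2, the leiomodin of heart and skeletal muscle, had signals of 709 and 149, 4.77-fold lower in the EiPS pool. Smtnl1, a smoothelin-like protein of muscle, had signals of 460 and 114, 4.01-fold lower. Mylk2, the light chain kinase of skeletal muscle, read 78.5 and, under the floor, 12.7, at least 3.04-fold lower. These relatives were at the low end of the family list, in which 3 of 15 compared genes were at least 2-fold lower. The median of that list was 0.09, and -0.10 after quantile normalization and -0.03 with equal medians. The striated muscle actins Acta1 and Actc1, differed by less (1.37-fold and 1.14-fold lower). Of the other relatives, Nes (nestin), a filament protein of progenitor cells, was 1.30-fold lower, with 3 probe sets that ran from -0.38 to 0.55 on the log2 scale, and the neuronal Tagln3 differed by -0.05.

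**Figure D3:**
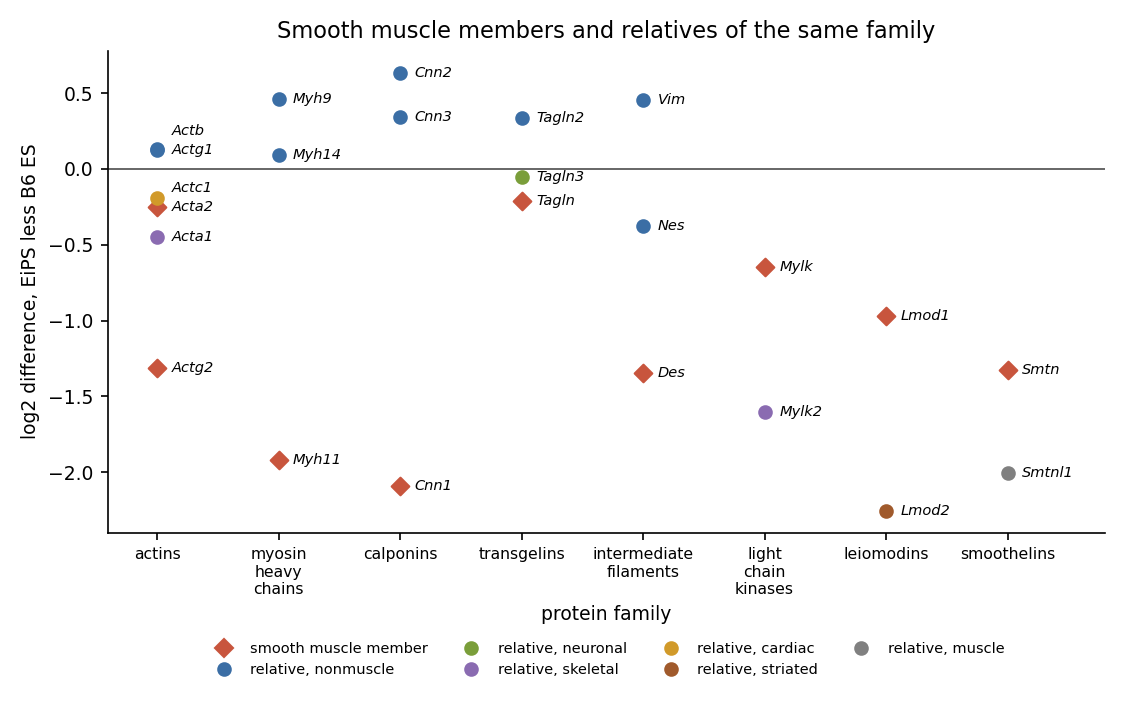
Log2 difference (EiPS less B6 ES) of smooth muscle members (diamonds) and of relatives of the same protein family (circles, coloured by where they are mainly expressed). Cnn1, Myh11 and Actg2 lie below their non-muscle relatives, and Lmod2, Smtnl1 and Mylk2 are the lowest relatives shown. The values of Lmod1 and Mylk2 are bounds, so their order against relatives is not settled.

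Other parts of the contractile machinery were divided. Of 26 compared genes of filament anchoring, light chains and myosin phosphatase, 15 were lower and 11 higher, and the median was -0.11. By at least 2-fold, 6 were lower and 1 higher. Pdlim3, a Z-disc and dense body protein, was 4.46-fold lower, Ldb3, another Z-disc protein, 2.99-fold, and Sgca, a sarcoglycan of muscle, 2.86-fold. The essential light chain gene Myl6 was 2.42-fold higher, from signals of 190 and 461. The other 3 genes at least 2-fold lower, named after their values were seen, were the tropomyosins Tpm2 (2.33-fold) and Tpm1 (2.09-fold) and Synpo2 (2.26-fold), an actin-bundling protein. The 3 probe sets of Tpm1 went both ways, from -1.06 to 0.87 on the log2 scale. The regulatory light chain Myl9, the substrate of Mylk in smooth muscle, had signals of 3165 and 1633, 1.94-fold lower (named after its value was seen). All of the genes at 2-fold lower in this list are also used in striated muscle.

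Genes of calcium, nitric oxide and receptor signalling to the contractile apparatus leaned lower, mostly at low signals. Of 16 compared genes 13 were lower, 1 of those by 2-fold or more, and the median was -0.57 (-0.31 with log2(signal + 64)). Adra1b, an alpha-1 adrenergic receptor, read 75.4 and 35.7 (2.11-fold lower). Pln (phospholamban, a brake on the calcium pump), Kcnma1 (the pore of the large-conductance potassium channel) and Rgs4 (a regulator of G protein signalling) were 1.80-fold, 1.77-fold and 1.77-fold lower. Kcnmb1, the smooth muscle subunit of the same potassium channel, was 1.66-fold higher, from signals of 28.1 and 46.5 near the floor. The muscarinic and oxytocin receptors Chrm3 and Oxtr were under the floor on both arrays and were not compared.

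The regulators of the smooth muscle programme showed little shift as a group. Of 25 compared genes 16 were lower and 9 higher, 1 at least 2-fold lower, and the median was -0.04 (-0.17 with equal medians). Myocd (myocardin), the SRF partner that drives smooth and cardiac muscle genes, was that gene, with low signals of 60.1 and 28.1 (2.14-fold lower). Srf itself had signals of 359 and 340, a log2 difference of -0.08. Mrtfa, a related SRF partner that responds to actin, differed by 0.23, and Mrtfb was under the floor in the B6 ES pool (5.68) and read 48.4 in EiPS tumours, at least 1.87-fold higher. Klf4, which represses contractile genes in vascular smooth muscle, was 1.69-fold higher (599 and 1010). Mef2c and Fhl1, both also prominent in striated muscle, were 1.62-fold and 1.87-fold lower. The Notch receptor Notch3 of vessel walls was 1.45-fold higher, and the TEAD factor gene Tead1 read 30.5 and 40.6, close to the floor. SRF targets of the immediate early kind did not lean with the contractile genes. Of 8 compared, 6 were higher, though Fosb and Egr2 turned below 0 after quantile normalization, and the median was 0.24, with a range of 0.11 to 0.50 over the alternatives. Junb (1.54-fold), Mcl1 (1.47-fold) and Fos (1.42-fold) were higher, although the probe sets of Mcl1 went both ways, and Egr3 at least 1.84-fold lower.

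Markers of other cells that express some of these genes moved in different directions. Every one of 22 compared skeletal muscle genes had less signal in EiPS tumours, 13 at least 2-fold, with a median of -1.13, close to the median of the smooth muscle members. Their summed signal was 137009 for B6 ES and 65870 for EiPS tumours, and no marker was near 0 (lowest signal 81.5). Myh4 (21.8-fold), Pygm (6.10-fold), Mb (6.02-fold) and Atp2a1 (5.66-fold) differed most. Summed signals are led by the brightest probe sets and can go against a list's median. They did so for contraction signalling (7730 and 8040), gut nerve, glia and pacemaker (7136 and 7399) and airway (2673 and 2362) genes. The part of skeletal muscle RNA in the signals of Des and the other members was not tested. Cardiac muscle genes had a median of -0.37 (from -0.64 after quantile normalization to -0.19 with probe sets averaged), with 10 of 16 lower, 3 of them at least 2-fold, and 6 higher. Nppa, Myh6 and Tnnt2 were the lowest, and Nppa was under the floor in the EiPS pool. Tnni3 went furthest the other way, 1.57-fold higher from low signals of 53.8 and 84.7. The summed signal of 28063 and 19730 was led by Actc1, Myl4 and Tnnt2 (11984, 8459 and 6301 in the B6 ES pool). The part of skeletal muscle RNA in the signals of the cardiac list was not tested.

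Cells that lie around or beside smooth muscle in vessels and stroma had higher medians. Over all compared genes the median was 0.07, and 6164 of 10962 were higher. Some genes are counted in several of the lists. The median of fibroblast and matrix genes was 0.27 (0.15 with equal medians), with 12 of 15 higher, 1 at least 2-fold, and a summed signal of 58410 and 72463. In this list Fn1 was 2.05-fold, Lum 1.91-fold and Fap 1.71-fold higher and Pdgfra 1.27-fold lower. Pericyte genes had a median of 0.41, with 6 of 9 higher and none at 2-fold, led by Higd1b (1.86-fold) and Pdgfrb (1.86-fold), and with Abcc9 1.69-fold lower. Endothelial genes had a median of 0.43, with 10 of 12 higher. Acta2, Tagln, Mylk and Cald1, the members also expressed in activated fibroblasts or other non-muscle cells, did not move alike. Acta2 and Tagln differed least, Cald1 was higher, and Mylk was lower by all 3 probe sets (-0.64 to -1.14). The part of fibroblast RNA in their signals was not tested.

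**Figure D4:**
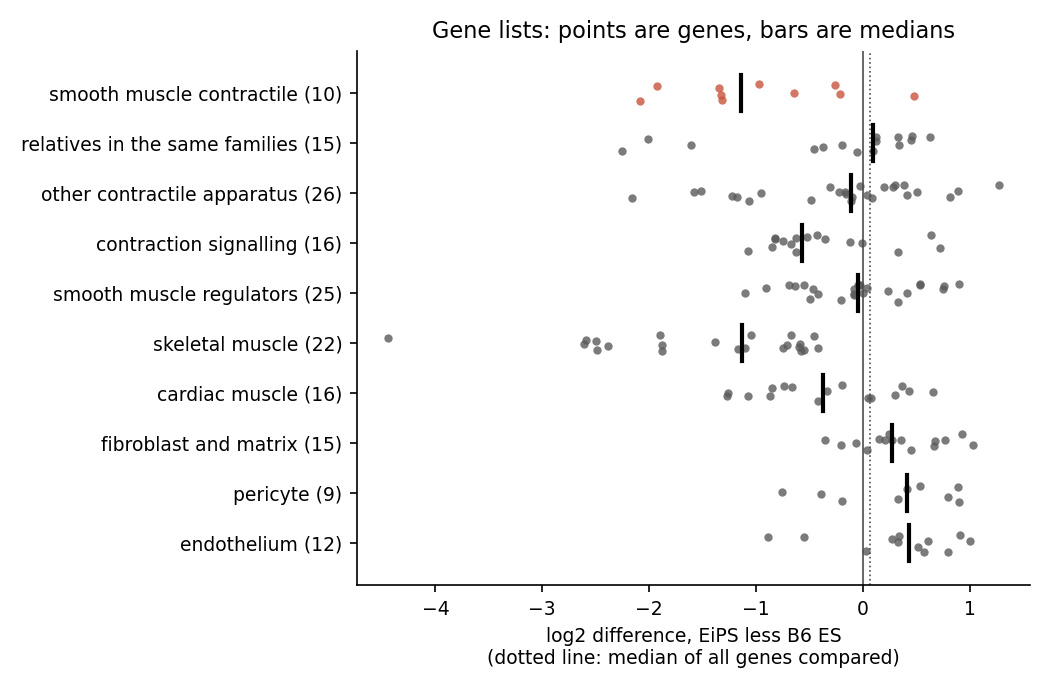
Log2 difference (EiPS less B6 ES) of every compared gene in 10 gene lists, with the number compared in parentheses. Points are genes, bars medians, and the dotted line the median of all compared genes (0.07). The smooth and skeletal muscle medians (-1.14 and -1.13) lie lowest, and those of fibroblast, pericyte and endothelial genes lie above 0.

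Smooth muscle surrounds gut and airway epithelium. Gut markers were mostly higher in the EiPS pool, while airway and alveolar markers were more divided. Gut epithelial genes had a median of 1.17, with 7 of 8 compared genes higher, 6 of them by at least 2-fold. Zg16 and Tff3 of goblet cells were 52.7-fold and 6.95-fold higher and the epithelial keratin gene Krt20 5.13-fold, while Fabp2, a fatty acid carrier of enterocytes, was 2.73-fold lower. Airway and alveolar genes had a median of 1.19, with 5 of 7 higher, but the median was 0.42 with a floor of 100, 0.60 with probe sets averaged and 0.69 with the highest silent receptor floor. The surfactant genes of the alveoli were on the higher side, Sftpc 6.57-fold, Sftpb 3.18-fold and Sftpa1 at least 3.07-fold. The airway secretoglobin Scgb3a2 was 5.48-fold lower, on the side of the contractile genes. Genes of gut nerves, glia and pacemaker cells had a median of -0.44, with 6 of 9 lower. In that list Nos1, the nitric oxide synthase of nerve cells, was 3.94-fold lower, but a second probe set differed by 0.69 on the log2 scale. The glial filament gene Gfap was 1.91-fold higher. Most, but not all, of the muscle, gut, airway and neural markers were above the floor on both arrays. Of the airway and gut lists, Nkx2-1 (1.39 and 3.04) and Cdx1 (25.5 and 17.9) were under it on both and were not compared. Sftpa1 was under it in the B6 ES pool (6.67).

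**Figure D5:**
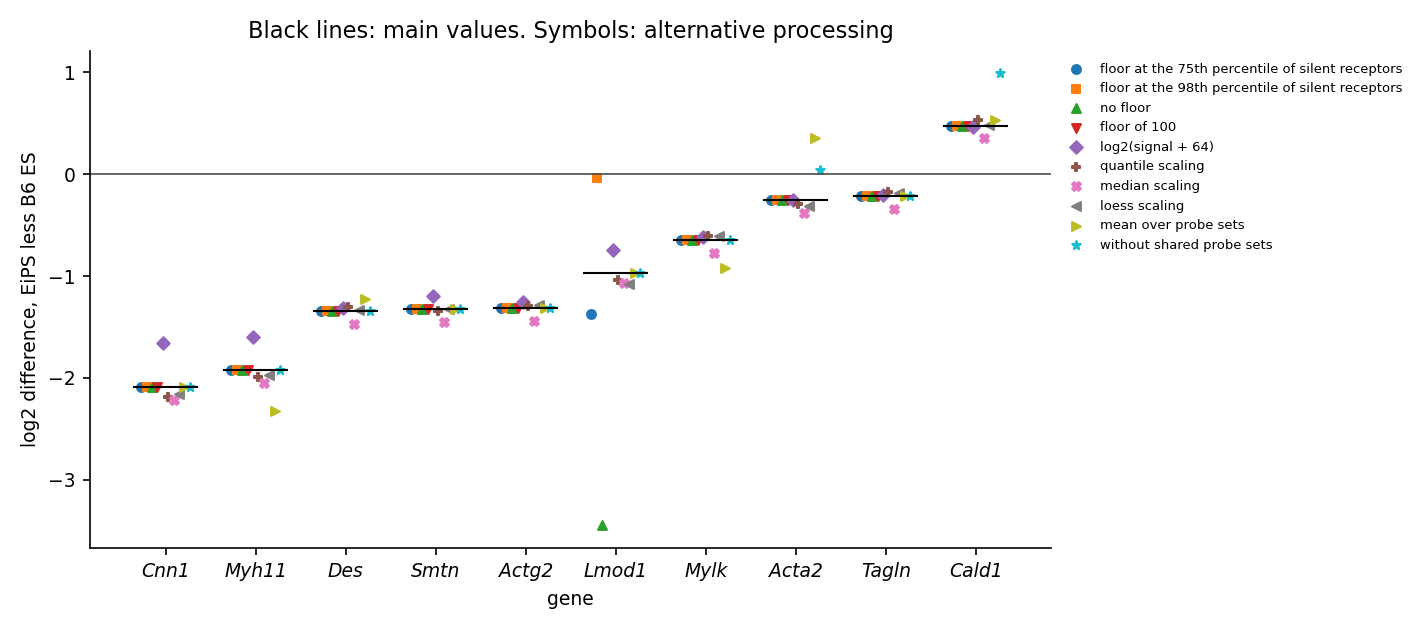
Log2 difference of each gene in the main values (black lines) and under 10 alternative settings (symbols). The values of Cnn1, Myh11, Des, Smtn, Actg2, Mylk and Tagln are below 0 and that of Cald1 above 0 under each setting that gives a value, Acta2 is above 0 in the 2 settings in which its near-floor probe set counts (0.04 and 0.35), and Lmod1 ranges from -3.45 with no floor to -0.04.

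The arrays had been scaled before deposit, so their similar overall level was set and does not bound how far another scaling can move a value. Quantile normalization, which depends on the signal, moved Adra1b from -1.08 to -1.36, for example, and Cnn1 from -2.09 to -2.18. The median signal over all probe sets was 179 for B6 ES and 196 for EiPS tumours, and 79.1% and 81.9% of probe sets were above the floor. Scaling to equal medians moved the median of all genes by -0.12 on the log2 scale. Relative to the median of all compared genes, the smooth muscle median was -1.21 in the main values and between -1.20 and -1.17 under the 3 other scalings. Over all compared genes, 334 were at least 2-fold lower and 635 at least 2-fold higher, so that 65.5% of genes past 2-fold were higher. That share was 52.9% after quantile normalization, 52.5% with equal medians and 56.8% after loess scaling.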

How the data were processed

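RNA of teratomas was measured on Affymetrix mouse arrays, 1 array per group (B6 ES and EiPS), grouped by the labels. The deposited table gives 1 intensity per probe set, unlogged. Per the submitters' processing notes the authors used Affymetrix Expression Console and MAS5, with no version or setting stated in the sources used here. In the values both arrays have a 2% trimmed mean of 499.96, so they had been scaled before deposit. MAS5 corrects each probe by its mismatch partner, so low signals are noisy, and scaling hides any difference in total RNA.

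Probe sets were named through the platform annotation, updated by Entrez identifier with RefSeq (assembly GRCm38.p6). Of 22690, 20380 had 1 symbol (20351 matched by identifier, 29 keeping the annotation's symbol), 691 several, 1555 none, and 64 were controls. The gene value was its brightest probe set. The floor was the 90th percentile of silent receptor signals (25.8), and 1431 genes under it on both arrays were not compared. Differences are log2 EiPS less log2 B6 ES, computed in Python 3.11.15 with numpy 2.4.6 and pandas 2.3.3. No p-value was computed, since no group has a replicate (precision is limited by the number of arrays). The steps were tested on simulated data, with known differences put only into brighter genes. Recovery was therefore not tested for dimmer genes such as Cnn1, Myh11 and Lmod1, or for bounds at the floor.

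All 10 members and the genes compared with them were chosen with earlier results of these data known. All members, family relatives and regulators could be named, and from each other list up to 4 genes with the largest difference and the largest opposite one. Alternatives were other floors, log2(signal + 64), 3 scalings, the mean over probe sets and leaving out shared probe sets.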

Additional observations from a re-analysis of the deposited data

How the results depend on the processing

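The median of the 10 smooth muscle genes was below 0 under all 10 alternatives, from -1.32 to -0.97, and the number at least 2-fold lower was 5 or 6. With a floor of 100 Lmod1 was under it on both arrays and gave no value. Acta2 was 0.35 with its probe sets averaged and 0.04 without the shared one, but both values rest on its second probe set, which lies at the floor, and say nothing of its direction. Cald1 was 0.99 without shared probe sets. Cnn1 and Myh11 were -1.66 and -1.60 with log2(signal + 64), which compresses low signals. With its probe sets averaged Myh11 was -2.33, a bound set by the floor, since the average takes in its dim probe set. The median of the other contractile genes ran from -0.23 with equal medians to 0.0053 with probe sets averaged. Medians of the cardiac, fibroblast, airway, signalling, regulator, family relative and immediate early lists moved by more than 1.5 times, as given with each. The counts over all genes moved too. With no floor, 720 genes were at least 2-fold lower and 1249 higher. With a floor of 100, which leaves 8999 genes, 305 were at least 2-fold higher. With log2(signal + 64), 187 were at least 2-fold lower and 246 higher. The median of the 5 restricted members was -1.92 with no floor. No paired analysis was possible because each group has 1 array, and no array could be left out. Signals near the floor (Lmod1, Myocd, Kcnmb1 and the dimmer probe sets of Myh11, Acta2 and Des) limit what can be said of those genes.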
